A study of Mus musculus with 2 samples.

Results

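Mice carry a family of Toll-like receptors, of which Tlr4 senses the lipid A used as stimulus here. The genes described are the other receptors Tlr1, Tlr2, Tlr3, Tlr5, Tlr6, Tlr7, Tlr8, Tlr9 and Tlr13, plus Unc93b1, encoding the endosomal receptors' trafficking partner. They were taken by name from a list, not by a rule on any measured value, but the list was chosen with earlier results of these data known. They make up 10 of the 55536 annotated genes in the gene tables, 22028 of which are protein-coding. Of the receptors, 4 act at the cell surface (Tlr1, Tlr2, Tlr5, Tlr6) and 5 in endosomes (Tlr3, Tlr7, Tlr8, Tlr9, Tlr13).

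The study sequenced total RNA, after removal of ribosomal RNA, from the nucleoplasm of macrophages grown from mouse bone marrow. The mice were of strain C57BL/6J and the labels name no altered allele. Both libraries came from cells given Lipid A at 100 ng/ml for 120 min, and they are the only group, called replicate 1 and replicate 2. The labels name 1 donor entry and separate biosamples for them, with 1 µg of RNA as input for replicate 1 and 500 ng for replicate 2, so replicate and input cannot be told apart. A label field for the subcellular fraction names the nucleus only. No unstimulated sample was analysed here, so the values below are levels after stimulation and say nothing of induction, and groups could not be tested against each other. The spread between the libraries is the only measure of error, and all SDs are over n = 2.

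Toll-like receptors are membrane proteins whose leucine-rich outer part binds a microbial molecule and whose inner TIR domain recruits signalling adaptors. At the cell surface Tlr2 pairs with Tlr1 or Tlr6 to bind bacterial lipoproteins, and Tlr5 binds flagellin. In endosomes Tlr3 binds double-stranded RNA, Tlr7 and Tlr8 single-stranded RNA and its breakdown products, Tlr9 DNA with unmethylated CpG, and Tlr13 a stretch of bacterial ribosomal RNA. Unc93b1 escorts the endosomal receptors out of the endoplasmic reticulum to endosomes, and there acid-activated proteases cleave them.

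The libraries differed in ways that touch every value below. They held 14374739 and 16372797 estimated counts (reads assigned to genes, with ambiguous reads split). Mitochondrial genes took 0.424% of counts in replicate 1 and 8.70% in replicate 2. Macrophage markers were present, 8 of 8 at 1 TPM or more in both libraries, summing to 904 TPM in replicate 1 and 1986 TPM in replicate 2. TPM is a level per transcript length, in which each library is scaled to the same total. Stromal markers (0 of 5 at 1 TPM or more in both) summed to 74.0 TPM (4669 counts) in replicate 1 and 0.24 TPM (15 counts) in replicate 2, where Col3a1 and Dcn had 0 counts.

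Of the 10 genes, 9 reached 1 TPM in both libraries, all but Tlr5, beside 40.4% of all protein-coding genes. By mean level they ran from Unc93b1 at 133 TPM down to Tlr5 at 0.325 TPM. Together the 10 held 12227 counts, or 0.0851% of replicate 1 (95% Wilson interval 0.0836% to 0.0866%), and 22878 counts, or 0.140% of replicate 2 (0.138% to 0.142%). These intervals cover counting error only. In bulk RNA, fewer cells of a type and less of the RNA in each cell cannot be told apart.

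**Figure D1:**
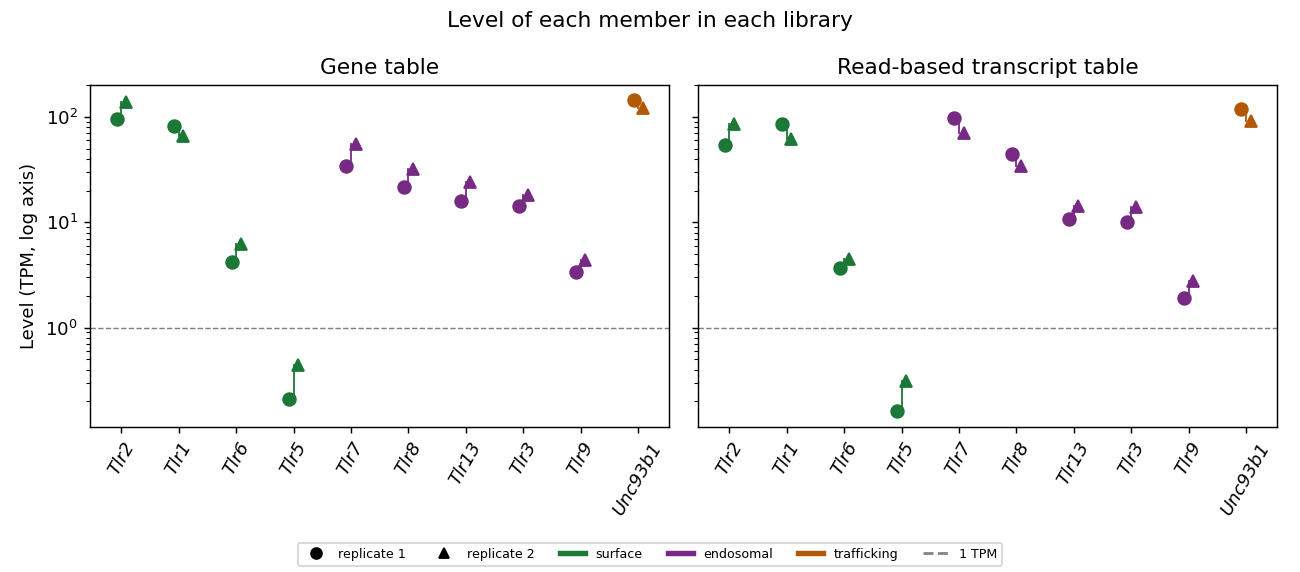
TPM on a log axis of each gene in replicate 1 (circles) and replicate 2 (triangles), in the gene table on the left and the read-based transcript table on the right, coloured by class, with a dashed line at 1 TPM. In the gene table Tlr2 and Tlr1 stand above every endosomal receptor, in the read-based table Tlr7 stands beside them, and Tlr5 lies below the line in both.

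Tlr2, the shared partner of the lipoprotein receptors (chr3:83836272-83841767, minus strand, mm10), was the highest receptor in the gene table. Its level was 95.8 TPM in replicate 1 and 139.6 TPM in replicate 2, or 118 ± 31.0 TPM (SD, n = 2), from 3774 and 8296 counts. Among protein-coding genes it ranked 641 in replicate 1 and 238 in replicate 2. The annotation gives Tlr2 a single transcript with 1 coding exon, so its level involves no choice between isoforms. The protein-coding genes nearest to Tlr2 in level, by distance in log2(TPM + 1) over the 2 libraries, were Hspa5, Kctd12 and Pltp, at 0.06, 0.14 and 0.14 log2 units. With only 2 points this is a likeness in level and nothing more.

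Tlr1, which pairs with Tlr2 on triacylated lipoproteins, came next among the receptors. It stood at 82.8 TPM in replicate 1 and 65.5 TPM in replicate 2 (74.1 ± 12.2 TPM), from 2208.64 and 2332.02 counts. Its replicate 2 value was the lower, the reverse of Tlr2. The ranges of Tlr2 and Tlr1 did not overlap.

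Tlr6, the other partner of Tlr2, which serves diacylated lipoproteins, was far lower than Tlr1. It stood at 4.16 TPM in replicate 1 and 6.23 TPM in replicate 2 (5.20 ± 1.46 TPM), from 169.36 and 264.98 counts. Both values lie below every value of Tlr1 and Tlr2. Of its 2 transcripts, Tlr6-202 of 446 bases held 17.5% and 45.1% of the gene's TPM but only 1.40% and 5.17% of its counts.

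Tlr1 and Tlr6 lie 18467 bases apart on the minus strand of chromosome 5 (chr5:64924679-64933563 and chr5:64952031-64960097). They were the only genes of the 10 with counts that are not whole, which marks reads divided between genes. Their counts added up to whole numbers, 2378 in replicate 1 and 2597 in replicate 2, so the divided reads were shared within the pair. The quantifier's own posterior SD was 1.73 counts in replicate 1 and 1.94 counts in replicate 2 for each gene, small beside either gene's count. Their coding sequences, of 2385 and 2418 bases without the stop codon, were 77.0% identical over 2339 aligned bases, and the longest run of identical bases was 229. No other pair of the 9 receptors shared a run longer than 16 bases.

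The likeness was not even along the gene. In windows of 200 bases, identity was 97.5% to 99.5% from coding base 1401 to 2200 of Tlr1 and fell to 53.5% in the least alike window. The stretches below show its downstream edge, where the genes become easy to tell apart. They run 5′ to 3′ along the coding strand, from coding base 2128 to 2307 of Tlr1 (chr5:64924926-64925105, minus strand, mm10) and 2167 to 2346 of Tlr6 (chr5:64953217-64953396, minus strand), and capitals mark the bases that differ.
Tlr1: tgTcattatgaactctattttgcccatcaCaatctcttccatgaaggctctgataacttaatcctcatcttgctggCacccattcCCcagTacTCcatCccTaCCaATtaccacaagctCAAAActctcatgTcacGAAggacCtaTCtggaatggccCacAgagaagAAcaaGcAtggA
Tlr6: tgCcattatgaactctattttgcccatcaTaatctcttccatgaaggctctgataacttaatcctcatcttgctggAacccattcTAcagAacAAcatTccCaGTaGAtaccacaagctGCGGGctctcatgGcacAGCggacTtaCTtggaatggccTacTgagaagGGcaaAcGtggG
Of these 180 bases 33 differed, with 5 in the first 90 and 28 in the last 90. A read that lies inside any shared run, not only the longest, matches both genes equally. The values of Tlr1 and Tlr6 are uncertain to that extent.

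Tlr5, the flagellin receptor (chr1:182954788-182976044, plus strand), was the lowest of the 10. It had 9 counts in replicate 1 (exact 95% Poisson interval 4.12 to 17.1) and 28 counts in replicate 2 (18.6 to 40.5), or 0.21 and 0.44 TPM. In the alignment-based table every count fell to 1 of its 5 transcripts, Tlr5-201, while the read-based table gave that transcript 9 of 10 counts in replicate 1 and 25.8 of 36 in replicate 2. The gene was above 0 in both libraries but below 1 TPM in each.

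Of the endosomal receptors, Tlr7, a sensor of single-stranded RNA, was the highest in the gene table. Tlr7 (chrX:167304929-167330558, minus strand) stood at 34.2 TPM in replicate 1 and 55.7 TPM in replicate 2 (45.0 ± 15.2 TPM), from 1480 and 3232 counts. Its coding transcript Tlr7-201 took 77.0% and 79.2% of those counts, and 53.5% and 46.5% of the read-based counts. Among the genes nearest to it in level were Serinc3 and Cd74, both at 0.15 log2 units.

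Its neighbour Tlr8, 40599 bases away on the X chromosome (chrX:167242696-167264329, minus strand), followed. It stood at 21.7 TPM in replicate 1 and 32.0 TPM in replicate 2 (26.8 ± 7.28 TPM), from 838 and 1826 counts. Its values did not overlap those of Tlr7. The leading transcript Tlr8-202 held 48.2% of the gene's TPM in replicate 1 and 69.3% in replicate 2, with Tlr8-201 at 39.7% and 14.3%. In the read-based table Tlr8-201 had 0 counts in both libraries and Tlr8-202 held 85.5% and 92.8% of the gene's counts. Shares of single transcripts depend on the table in this way for 6 of the 10 genes, where the leading share moved by more than the SD between libraries. Part of this count was fixed in advance. Tlr2 and Tlr9 have a single transcript and could not move. Tlr5, 1 of the 6, had a leading share of 100% in both libraries, so any change counted.

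Tlr13, the receptor for bacterial ribosomal RNA (chrX:106143204-106160493, plus strand), was close to Tlr8. It stood at 15.9 TPM in replicate 1 and 23.9 TPM in replicate 2 (19.9 ± 5.64 TPM), from 741 and 1858 counts. The ranges of Tlr8 and Tlr13 overlapped, although Tlr8 was the higher in each library.

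Tlr3, the receptor for double-stranded RNA (chr8:45395665-45411080, minus strand), stood at 14.3 TPM in replicate 1 and 18.2 TPM in replicate 2 (16.3 ± 2.76 TPM), from 570 and 1154 counts. Its range overlapped that of Tlr13. It has 9 annotated transcripts, more than any other of the 10, and its level was spread over them: Tlr3-201 held 36.9% and 26.7% of TPM, Tlr3-205 15.6% and 33.5%, and the single-exon Tlr3-206 28.7% and 22.7%. The antisense gene Gm45542 overlaps Tlr3 and had 1 count in each library, and whether counting used strand is not given in the sources used here.

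Tlr9, the CpG DNA receptor (chr9:106222598-106226883, plus strand), was the lowest endosomal receptor. It stood at 3.4 TPM in replicate 1 and 4.43 TPM in replicate 2 (3.92 ± 0.728 TPM), from 156 and 307 counts on its single transcript. The ranges of Tlr9 and Tlr6 overlapped, and both lay above Tlr5.

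Tlr4 itself, outside the 10, stood at 12.85 TPM in replicate 1 and 9.48 TPM in replicate 2, below both values of Tlr3 and above both values of Tlr6. Cd14, the coreceptor that hands lipopolysaccharide to Tlr4, was higher, at 107 and 268 TPM. Tlr11 and Tlr12, which sense a parasite profilin, were near the floor, with 6 and 11 counts for Tlr11 and 1 and 0 counts for Tlr12. Tlr4 and Tlr11 were named for their place in the family, after their values were seen. A count of 0 allows up to 3 counts.

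B cells and dendritic cells also express several of these receptors, Tlr7 and Tlr9 among them, so their markers were examined. None of 5 B cell markers reached 1 TPM in both libraries, and the list summed to 1.65 TPM in replicate 1 and 0.46 TPM in replicate 2, with Pax5 at 0 counts in replicate 1 and Cd79a at 0 in replicate 2. The plasmacytoid dendritic cell list (0 of 5 at 1 TPM in both) summed to 1.87 and 0.61 TPM, with Siglech at 0.53 and 0.1 TPM and Ly6d at 0 counts in both. Ccr9 was its highest member, at 0.89 and 0.46 TPM (59.81 and 46.43 counts). Conventional dendritic cell markers (0 of 5) summed to 3.96 and 1.68 TPM, with Cd209a at 0 counts. Zbtb46 was the highest of them, at 1.8 and 0.84 TPM (92 and 69 counts), and Clec9a stood at 1.42 and 0.37 TPM (57 and 24 counts). Neutrophil markers (0 of 6) summed to 1.69 and 2.84 TPM, with Ly6g and Camp at 0 counts, and T cell markers (0 of 4) to 0.92 and 0.31 TPM, with Cd3e and Cd3g at 0 counts. These lists rest on few counts, 35 and 13 for the B cell list and at most 188 and 132, for the conventional dendritic cell list. The part of such cells in the receptor levels was not tested.

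Unc93b1 (chr19:3935186-3949340, plus strand) was the highest of the 10 by mean. It stood at 143 TPM in replicate 1 and 122 TPM in replicate 2 (133 ± 14.7 TPM), from 2281 and 3580 counts, and ranked 377 and 280 among protein-coding genes. Its range overlapped that of Tlr2, and which was higher differed between the libraries. Nearest in level were Ms4a6c, Aim2 and Psme1, at 0.08 to 0.11 log2 units.

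Much of the Unc93b1 level lay in transcripts that the annotation classes as retained_intron, meaning that they keep an intron and have no annotated coding sequence. These transcripts held 104.6 TPM in replicate 1 and 63.9 TPM in replicate 2, or 73.0% and 52.2% of the gene. The median share over 3788 protein-coding genes with such a transcript and at 5 TPM or more was 39.3% in replicate 1 and 33.0% in replicate 2. Unc93b1 lay above 93.8% of those genes in replicate 1 and above 78.2% in replicate 2. In the read-based table the Unc93b1 shares were 75.01% and 53.3%.

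TPM weighs short transcripts heavily, and the retained-intron transcripts of Unc93b1 are short. By counts they held 52.2% of the gene in replicate 1 and 31.5% in replicate 2. The full coding transcript Unc93b1-203, of 2266 bases and 11 exons, had 1066 and 2226 counts. The retained-intron transcripts Unc93b1-201 (1668 bases) and Unc93b1-202 (747 bases) had 793 and 737, and 355 and 362 counts. So the counts of the coding class were higher in replicate 2, 2453 beside 1090, while those of the retained-intron class were 1127 beside 1191. Coding transcripts alone put Unc93b1 at 38.7 TPM in replicate 1 and 58.5 TPM in replicate 2, below Tlr2 in each library. Beside the coding transcripts of Tlr1, at 57.53 and 39.99 TPM, Unc93b1 was then the lower in replicate 1 and the higher in replicate 2.

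**Figure D2:**
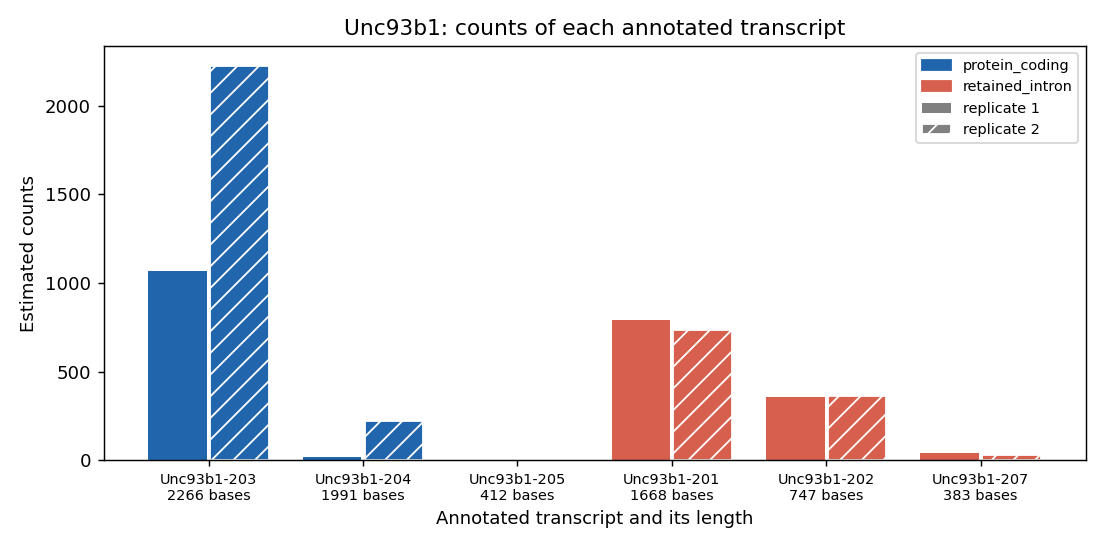
Estimated counts of each annotated Unc93b1 transcript with any count, by transcript (its length below the name), with plain bars for replicate 1 and hatched bars for replicate 2, blue for protein_coding and red for retained_intron. Unc93b1-203 goes from 1066 to 2226 counts between the libraries, and Unc93b1-202 is at 355 and 362.

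A lower retained-intron share in replicate 2 was common, found for 72.3% of the 3788 genes. The difference in log2 level between the coding and the retained-intron transcripts shifted by 1.29 between the libraries for Unc93b1, against a median shift of 0.32, and 7.55% of genes shifted further. Tlr13 is the only receptor of the 9 with a retained-intron transcript. Its share was 14.2% in replicate 1 and 4.78% in replicate 2, resting on 4 and 3 counts, too few to tell apart.

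Summed over genes, surface receptors stood above endosomal receptors in the gene table. In replicate 1 the 4 surface receptors summed to 183 TPM and the 5 endosomal receptors to 89.4 TPM, a ratio of 2.05. In replicate 2 the sums were 212 and 134 TPM, a ratio of 1.58. Tlr1 and Tlr2 held 97.6% and 96.9% of the surface sum, and Tlr7 38.2% and 41.5% of the endosomal sum, so the surface class here is largely the lipoprotein pair. Unc93b1 stood at 1.60 times the endosomal sum in replicate 1 and 0.912 times in replicate 2, but at 0.714 and 0.674 times in the read-based table. With only transcripts of 1000 bases or more it stood at 0.990 and 0.727 times in the alignment-based table. Under the same limit the read-based table put it at 1.17 and 0.814 times.

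The read-based transcript table, a second quantification of the same libraries, did not keep this order. There the surface and endosomal sums were 143 and 165 TPM in replicate 1, a ratio of 0.868, and 153 and 136 TPM in replicate 2, a ratio of 1.13. Tlr7 led the receptors by mean, at 97.5 and 70.2 TPM, ahead of Tlr1 at 85.1 and 61.9 TPM and Tlr2 at 54.2 and 86.2 TPM. The ranges of these 3 receptors overlapped in that table. Which class was higher thus differed between the deposited tables in replicate 1.

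Short annotated transcripts carried the change. Tlr7-206, a processed transcript of 261 bases without coding sequence, had 57.9 and 29.5 TPM in the read-based table from 120 and 139 of its 1924 and 4732 Tlr7 counts. In the alignment-based table the same transcript had 2.23 and 5 counts. Transcripts under 1000 bases held 82.4% and 61.9% of the read-based TPM of Tlr7 but 11.4% and 5.72% of its read-based counts. For Tlr8 the shares were 76.2% and 52.3% of TPM and 14.5% and 7.23% of counts, with Tlr8-204 (387 bases) at 32.6 and 14.8 TPM. Tlr1 was affected in both tables: its processed transcript Tlr1-203 of 419 bases held 25.25 and 25.5 TPM in the alignment-based table from 72.4 and 110 counts.

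With transcripts under 1000 bases left out, an alternative chosen after seeing the data, the order of the 6 highest receptors was the same in both tables, Tlr2, Tlr1, Tlr7, Tlr8, Tlr13 and Tlr3 by mean. Surface over endosomal was then 2.03 and 1.65 in the alignment-based table and 2.09 and 1.68 in the read-based table. In the read-based table the longer transcripts gave Tlr2 54.2 and 86.2 TPM, Tlr1 34.4 and 24.7 TPM, Tlr7 17.2 and 26.7 TPM and Tlr8 10.7 and 16.4 TPM.

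**Figure D3:**
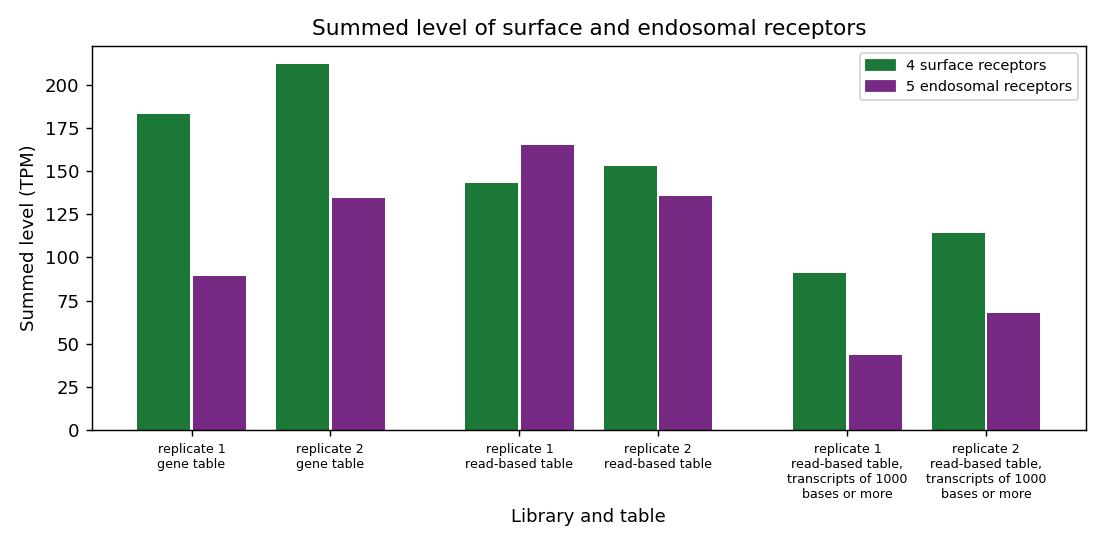
Summed TPM of the 4 surface receptors (green) and 5 endosomal receptors (purple) in each library, in the gene table, the read-based table, and the read-based table with transcripts of 1000 bases or more. Green is the taller bar in each pair except replicate 1 of the read-based table, at 143 beside 165 TPM.

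Between the libraries, receptor RNA was higher in replicate 2 relative to other genes. The measure is log2 of (TPM + 1) in replicate 2 over that in replicate 1, minus the median of the 12655 genes averaging at least 1 TPM, which was -0.58. On this relative scale 9 of the 9 genes averaging at least 1 TPM lay above 0, beside 55.7% of protein-coding genes at that level. A relative value of 1 or more, a 2-fold difference, was reached by 5 of the 9, namely Tlr2, Tlr6, Tlr7, Tlr8 and Tlr13, beside 5.59% of protein-coding genes. That count depended on the processing. It was 4 of 9 in the read-based table (Tlr2, Tlr3, Tlr9 and Tlr13), 6 of 9 by edgeR's TMM or DESeq2 scaling, 7 of 9 with a pseudocount of 0.1 and 0 of 9 without the limit on level in the centring, where Tlr7 was the highest at 0.997. For Tlr6, reaching 2-fold rests on the short transcript Tlr6-202, with 2.37 and 13.71 counts. Its longer transcript, at 3.43 and 3.42 TPM, lies above 0 but below 1 once the median of -0.58 is subtracted. No test was possible with 1 group, and members of a list are not replicates.

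The endosomal receptors lay close together, from 0.89 (Tlr9) and 0.91 (Tlr3) through 1.12 (Tlr8) and 1.14 (Tlr13) to 1.27 (Tlr7), with a median of 1.12. Of the surface receptors, Tlr2 lay at 1.12, Tlr6 at 1.07 and Tlr1 at 0.25, and Tlr5 was under the limit on level. Tlr7 lay above 97.3% of protein-coding genes and Tlr1 above 64.4%. Tlr1 is thus the exception among the receptors, and its place above 0 did not hold without the limit on level, where it was -0.03. In the read-based table Tlr7 and Tlr8, whose short transcripts were described above, were at only 0.16 and 0.25.

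Unc93b1 lay at 0.36, above 71.5% of protein-coding genes. Its coding transcripts alone, a subset chosen after seeing the data, lay at 1.17, and its retained-intron transcripts at -0.12. The receptor values are over all transcripts of each gene, so the 1.17 is not on the same measure. By edgeR's TMM scaling of rounded counts Unc93b1 was at 0.73, Tlr1 at 0.16 and Tlr6 at 0.72, while the 5 endosomal receptors had a median of 1.20.

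**Figure D4:**
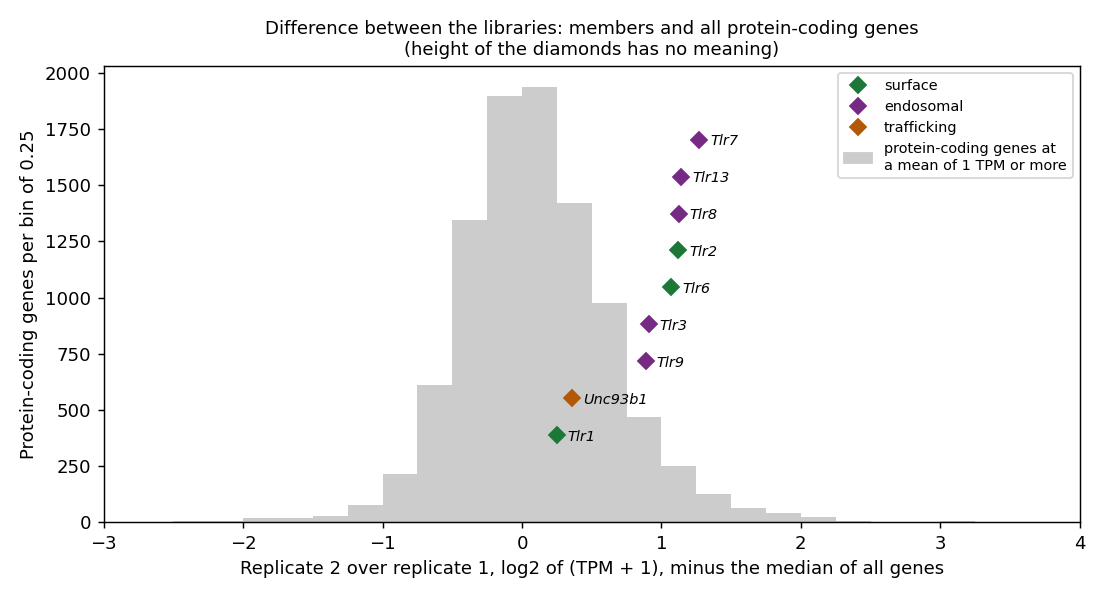
Histogram of the relative log2 difference (replicate 2 over replicate 1) over protein-coding genes averaging at least 1 TPM, with a diamond for each of the 9 genes at that level, placed at increasing heights only for legibility. Tlr1 (0.25) and Unc93b1 (0.36) lie in the body of the distribution and the other 7 lie from 0.89 to 1.27, in its upper tail.

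Several measures moved with this difference. Macrophage markers were higher in replicate 2 for 7 of 8 genes, with a median of 1.09 (Lyz2, lysozyme, at 2.29), and the mitochondrial share was higher in replicate 2 and the stromal sum higher in replicate 1, as given above. Their part in the receptor difference was not tested. Genes with few coding exons also lay higher: the median was 0.21 over 535 genes with 1 coding exon, 0.26 over 1743 genes with 2 to 4 and 0.02 over 7268 genes with 5 or more. Tlr1, Tlr2 and Tlr6 have 1 coding exon in their leading transcript, Tlr5, Tlr7, Tlr8, Tlr9 and Tlr13 have 2, Tlr3 has 4 and Unc93b1 has 11. Of the genes with 2 to 4 coding exons, 9.52% reached a 2-fold difference, against 4.17% of those with 5 or more. Whether coding exon number has a part in the receptor difference was not tested.

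The other genes of the pathway did not share 1 value. Their counts stand beside 55.7% of protein-coding genes averaging at least 1 TPM above 0 and 5.59% at 2-fold or more. Proteases that cleave endosomal receptors were higher in replicate 2 for 5 of 5 genes averaging at least 1 TPM, 4 of them 2-fold or more, with a median of 1.77. Ctsb, cathepsin B, was the highest at 613 TPM in replicate 1 and 1399 TPM in replicate 2, with a relative value of 1.77, and Ctsk the lowest at 0.71 and 0.29 TPM.

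Receptors outside the 10 and their surface partners had a median of 0.99. Of 6 genes, 5 were higher and 3 were at 2-fold or more, beside 55.7% and 5.59% of protein-coding genes. Cd14, the member with the highest TPM, lay at 1.90, and Tlr4 at 0.18. In the gene table Tlr4 thus lay beside Tlr1 rather than beside the endosomal receptors. The read-based table put Tlr7 at 0.16 and Tlr8 at 0.25, near Tlr1 at 0.17, and Tlr4 was not examined there.

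Chaperones and genes of endosomal transport or ligand supply had a median of 0.57. Of 15 genes, 11 were higher and 4 were at 2-fold or more, beside 55.7% and 5.59% of protein-coding genes. Rnaset2b, a ribonuclease that feeds ligands to RNA-sensing receptors in endosomes, was the highest at 282 and 181 TPM and lay at -0.05, although its near-identical copy Rnaset2a can share its reads. Cnpy4 was the lowest at 0.82 and 1.74 TPM. Hsp90b1, the chaperone gp96 on which most Toll-like receptors depend for folding, stood at 45.0 and 107 TPM, a relative value of 1.82, and was picked after its values were seen.

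Adaptors, kinases and transcription factors below the receptors lay near the middle of all genes, with a median of 0.03. Of 19 genes, 10 were higher and 0 were at 2-fold or more, near the 55.7% and 5.59% of protein-coding genes. Irf7, a factor that drives interferon genes, was the highest at 262 and 181 TPM and lay at 0.05, and Sarm1 was the lowest with 1 count in each library. Myd88, the adaptor used by every receptor of the 9 except Tlr3, stood at 40.1 and 25.35 TPM and lay at -0.06, and Ticam1, the adaptor of Tlr3, at 5.5 and 4.11 TPM and 0.24. Both were named for their role, after their values were seen.

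**Figure D5:**
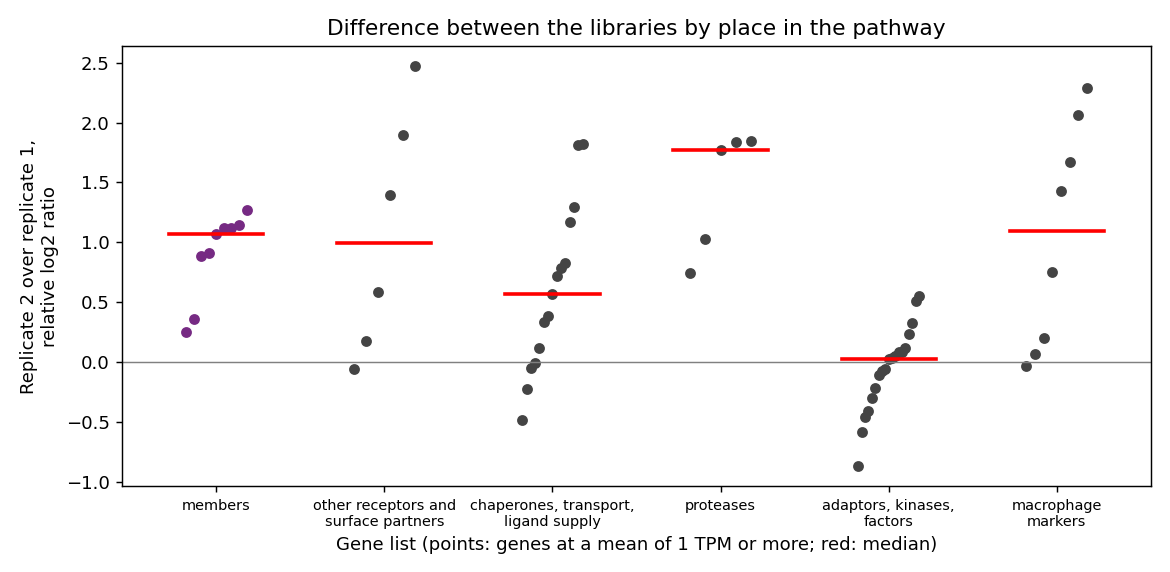
Relative log2 difference (replicate 2 over replicate 1) of each gene averaging at least 1 TPM, by list, with the median as a red line. The 10-gene list (purple, 9 genes shown), proteases and macrophage markers have medians of 1.07, 1.77 and 1.09, and the adaptor list has 0.03.

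The RefSeq promoter table (GRCm38.p6, 250 bases before to 50 after each start) held 10 windows of 8 of the 10 genes, all but Tlr7 and Unc93b1. These windows were searched on both strands for 3 motifs of factors active in stimulated macrophages, and matches to different motifs did not overlap in the windows of these genes. The interferon response element TTTCNNTTT was in 3 of the 10 windows (Tlr2, Tlr3, Tlr6) and in 10.6% of all 32851 windows. The NF-kB motif GGANNTTCC was in 1 of 10 (Tlr3), against 4.26% of all. The PU.1 motif GAGGAAGT, of the factor that specifies macrophages, was in 2 of 10 (Tlr1, Tlr9), against 3.20%. The interferon and NF-kB matches are shown because both kinds of factor are active after lipid A. Each is printed 5′ to 3′ along the strand of the gene, with the motif in capitals and 10 bases before it: Tlr2 at chr3:83841780-83841809, Tlr6 at chr5:64959257-64959286, and Tlr3 at chr8:45410420-45410449 and chr8:45410571-45410600, all minus strand.
Tlr2 interferon response element: gggaggcagcTTTCTCTTTaggacacctgg
Tlr6 interferon response element: ttcttttctcTTTCACTTTctgtttgatgt
Tlr3 interferon response element: agtgaatggcTTTCACTTTgtttagacaca
Tlr3 NF-kB: gttgtttctgGGAGTTTCCtgcttttgagg
The Tlr6 window shown is the middle one of 3 overlapping matches. A match describes letters in a window and says nothing of binding, and these data hold no measure of it.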

How the data were processed

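Per library, the deposited files are gene and transcript tables from an alignment to the transcriptome and another transcript table made from reads, on mm10 with annotation M21 per the accompanying notes. Which quantification tools, versions and strand setting were used is not given in the sources used here. Values deposited by the authors are estimated counts (expected counts that need not be whole), TPM and FPKM, per the file headers. FPKM, fragments scaled by length and depth by the authors, entered only as an alternative.

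The genes and gene lists were chosen with earlier results of these data known. Detection means 1 TPM or more in both libraries, log ratios use a pseudocount of 1 TPM, which understates differences of low genes, and 15 of 16 symbols of the chaperone list matched. Entries without a gene name took 1.41% and 0.245% of counts and stayed out. Named genes are the 10, the 3 nearest in level to Tlr2, Tlr7 and Unc93b1, and the highest and lowest of each list. Some genes that this rule takes are not reported here. Protein-coding genes of the nuclear genome made up 72.6% and 67.1% of counts and only 29.7% and 20.8% of TPM. Protein identity could not be computed from the references used here, so coding sequences of the M21 transcripts were aligned (biopython 1.88). Alternatives changed the table, unit, threshold, pseudocount, filter, centring or library, with edgeR 4.0.16 (TMM) and DESeq2 1.42.0 (size factors) on counts rounded to whole numbers in R 4.3.3. The remaining work ran in Python 3.11.15 with scipy 1.17.1, numpy 2.4.6, matplotlib 3.10.9 and pandas 2.3.3. The ratio and scaling steps were tested on simulated data.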

Additional observations from a re-analysis of the deposited data

How the results depend on the processing

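The number of genes at the detection level was 9 under every alternative except a threshold of 5 TPM, which left 7. The log2 ratio of summed surface over endosomal level, 0.85 as a mean of the libraries, was -0.015 in the read-based table and 0.27 without the highest receptor of each class, and 0.66 to 1.03 with either library left out. The other 5 alternatives gave 0.85 to 1.02, including both that kept only transcripts of 1000 bases or more, chosen after seeing the data. The relative ratio of Unc93b1, 0.36, was 1.17 over protein_coding transcripts alone and -0.12 over retained_intron transcripts alone, both chosen after seeing the data, and 0.082 (no limit on level) to 0.73 otherwise. The median relative ratio was 0.68 to 1.23 for surface and 0.85 to 1.24 for endosomal receptors. Of the levels of single genes under alternatives that kept both libraries, 19 moved by less than the SD between libraries and 31 by more. Part of this tally was fixed in advance. Rescaling to nuclear-encoded protein-coding genes is a change of unit that moved every level, that of Tlr2 from 118 to 496. Tlr2, Tlr5 and Tlr9, without counts in short transcripts there, could not move under the length limit in the alignment-based table. The tally is thus no measure of how robust the levels are. No paired analysis was possible because there is only 1 group. With 2 libraries the SD is itself poorly known, and Tlr5, at 9 and 28 counts, is limited by depth.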
